A study of Homo sapiens with 3 samples.

Results

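The genes described here are 60 factors of ribosome biogenesis and ribosomal RNA (rRNA) processing, chosen by name from what is known of their function. Earlier results of these data were known when these genes were chosen. They were read from the gene names of 3 RNA sequencing tables that together hold 25247 named symbols. By role, 29 act on the small ribosomal subunit and 23 on the large one. A further 3 are core proteins of box C/D small nucleolar ribonucleoproteins (snoRNPs), and 5 are nucleolar proteins not assigned here to a subunit. All 60 were found. For 57 the symbol had a row of its own, whereas NOP56, PPAN and RRP7A were read in rows that join several gene names. The series measured OCI-AML2 R50 cells, from an established line (OCI-AML2) of acute myeloid leukaemia (AML), grown in medium with 15% serum and 50 µM cytarabine (Ara-C), the nucleoside analogue of AML chemotherapy. All groups shared this medium. The comparison was of 1 control library (no romidepsin) with 2 libraries exposed for 18 h to romidepsin, a cyclic peptide that inhibits class I histone deacetylases. The cells are a single line. No source used here states the romidepsin dose or whether the treated pair came from separate cultures, and p-values reflect the spread of that pair alone, which may be technical.

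Ribosomes are assembled in the nucleolus. RNA polymerase I makes a long precursor that holds the rRNAs of both subunits, and the small subunit (SSU) processome, a large particle built on the precursor around the U3 snoRNP, folds and cuts out the rRNA of the small subunit. Separate pre-60S particles mature the rRNAs of the large subunit, guided by GTPases, helicases and placeholder proteins that leave before export. Many genes of this pathway are textbook targets of the transcription factor MYC, and fast-growing leukaemia cells make much of their products.

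After romidepsin, transcripts of almost every one of these factors were lower. The control stood above both romidepsin libraries for all 60 members, an ordering seen in 51.4% of the 11708 genes tested. Of the 60, 59 passed the limma test as lower (background 41.8% of all genes tested) and 0 as higher (background 34.7%). At an unadjusted p under 0.05, 0 were higher as well. A fall of at least 2-fold in both romidepsin libraries, counted on the log2(FPKM + 1) scale here and below unless FPKM is named, was met by 19 of the 60 (background 3.08%), and a rise of that size by 0 (background 7.43%). On FPKM with no pseudocount 22 of the 60 met the rule (background 4.91%), the 3 others being UTP15, NAT10 and RRP1. The median change was -0.88 on the log2(FPKM + 1) scale, against -0.05 over all genes tested, where FPKM stands for fragments per kilobase of transcript, scaled to the number of mapped fragments. Falls exceeded the members' median in 5.63% of all genes. In these bulk samples, fewer cells of a type and less RNA per cell cannot be told apart.

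Well expressed genes as a class also fell more often than others. Among the 6583 genes with a mean of at least 10 FPKM, 53.0% passed as lower and 29.1% as higher, 3.83% were at least 2-fold lower and 4.21% at least 2-fold higher in both libraries, and the control lay above both in 60.6%. Their median was -0.16. In the same fit 56 of the 57 members in that class were lower, 18 of them at least 2-fold, with a median of -0.87. Summed over the 60 members, the level was 5295 FPKM in the control and 2903 and 2943 FPKM in the romidepsin libraries. That was 0.863% of the FPKM of all named genes in the control and 0.558% and 0.568% after romidepsin. Without NPM1 and NCL, the most abundant pair, the shares were 0.593%, 0.383% and 0.389%. The share fell in both libraries with and without that pair. The cumulative plot places the members of both subunits to the left of all genes.

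**Figure D1:**
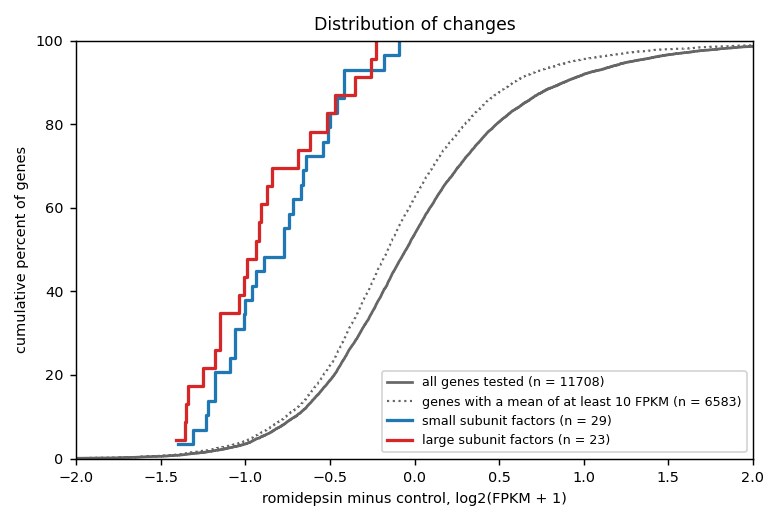
Cumulative percent of genes (vertical axis) by the change after romidepsin on the log2(FPKM + 1) scale (horizontal axis), for all 11708 genes tested, the 6583 genes with a mean of at least 10 FPKM, the 29 small subunit factors and the 23 large subunit factors. Both coloured curves lie wholly below 0, while the curves of the wider gene sets cross 0.

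The test rests on a single control library and on the small spread of the romidepsin pair (a median difference of 0.05 between the pair over the members, largest at 0.21 for RRP15). With each library scaled to the same summed FPKM (equal-sum scaling), the median of all genes moved from -0.05 to 0.16 and called genes were 65% higher instead of 45.3%. The members then lay 0.81 below the median of all genes, compared with 0.83 as deposited: 55 were lower and 1 higher (26.2% and 48.7% of all genes), and 7 were at least 2-fold lower in both libraries (1.47% of all genes). With quantile normalization the members lay only 0.65 below the median of all genes. In that setting 57 were lower (37.5% of all genes), 10 of them at least 2-fold (3.31%). With no filter on low values 38 were lower, against 8.27% of all 25247 genes.

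Since the members fell together, their promoters were searched for 4 motifs on both strands, in RefSeq windows of 300 bases (250 before and 50 after each start site, build GRCh38.p14; the deposited values were made on hg19, per the submitters' processing notes). Windows were found for 50 of the 60 members. The E-box CACGTG, the site bound by MYC with its partner MAX and by related factors, was in the windows of 21 of these 50 members (42%). It was in 7.26% of all 35116 windows and in those of 13.0% of the 8409 tested genes with a window. The ETS family site CCGGAAG was in 40% of the members and 23.3% of tested genes (10.3% of all windows). The NRF1 site was in 20% and 14.0% (5.78% of all windows), and the GC box GGGCGG in 72% and 77% (45.0% of all windows). None of these motifs holds another. A match describes letters only and is not a measured binding site.

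Most of the E-boxes lay just after the start site. Of 24 matches in the members' windows, 16 (66.7%) began after the start, against 119 of 1296 matches (9.18%) in the windows of 1071 other tested genes. By role, E-boxes were found for 12 of 25 small subunit factors, 6 of 19 large subunit factors, 1 of 2 box C/D proteins and 2 of 4 other nucleolar proteins with a window. Members with an E-box had a median change of -1.01 and a range of -1.49 to -0.23, and 10 of 21 were at least 2-fold lower in both libraries. Members with a window but no E-box had a median of -0.87 and a range of -1.36 to -0.09, and 6 of 29 met that rule. The ranges overlapped along most of their length.

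**Figure D2:**
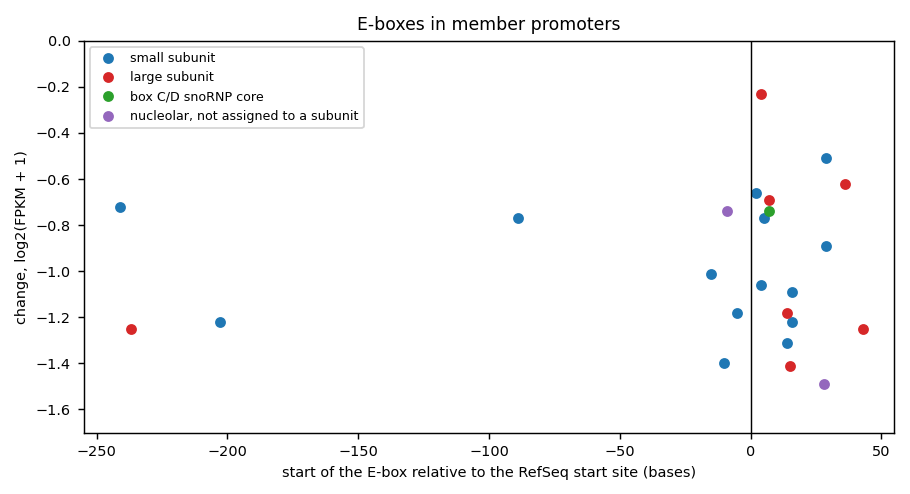
Each point is 1 E-box in the promoter window of a member. The horizontal axis gives the first base of the match relative to the RefSeq start site in bases, the vertical axis the change of that gene after romidepsin on the log2(FPKM + 1) scale, and colours the role. Of the 24 matches, 16 lie right of the line at the start site.

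The stretch from 170 bases before to 30 bases after the start is shown for the 4 members with the largest falls among those whose E-box lies wholly within it, and for GNL2, the one with the smallest fall. Sequences are from RefSeq, run 5′ to 3′ along the gene, and carry the E-box in capitals.
MRTO4, GRCh38.p14 chr1:19251635-19251834, + strand: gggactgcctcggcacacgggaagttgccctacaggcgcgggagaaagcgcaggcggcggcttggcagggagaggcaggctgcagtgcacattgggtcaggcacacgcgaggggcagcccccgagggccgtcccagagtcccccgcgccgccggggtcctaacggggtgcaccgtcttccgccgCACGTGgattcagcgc
UTP20, GRCh38.p14 chr12:101279935-101280134, + strand: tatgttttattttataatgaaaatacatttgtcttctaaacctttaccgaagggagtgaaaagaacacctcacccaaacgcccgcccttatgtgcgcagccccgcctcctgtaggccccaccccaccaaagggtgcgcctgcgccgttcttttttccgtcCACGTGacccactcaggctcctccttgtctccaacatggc
NOL6, GRCh38.p14 chr9:33473895-33474094, - strand: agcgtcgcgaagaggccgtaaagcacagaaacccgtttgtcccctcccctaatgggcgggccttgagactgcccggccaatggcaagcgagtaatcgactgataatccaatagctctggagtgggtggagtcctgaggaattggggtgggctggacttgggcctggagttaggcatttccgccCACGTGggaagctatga
IMP4, GRCh38.p14 chr2:130342727-130342926, + strand: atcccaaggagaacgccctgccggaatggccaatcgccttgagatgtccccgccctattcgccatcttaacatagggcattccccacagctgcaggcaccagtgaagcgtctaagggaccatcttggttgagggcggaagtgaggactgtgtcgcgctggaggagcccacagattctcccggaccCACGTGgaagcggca
GNL2, GRCh38.p14 chr1:37595908-37596107, - strand: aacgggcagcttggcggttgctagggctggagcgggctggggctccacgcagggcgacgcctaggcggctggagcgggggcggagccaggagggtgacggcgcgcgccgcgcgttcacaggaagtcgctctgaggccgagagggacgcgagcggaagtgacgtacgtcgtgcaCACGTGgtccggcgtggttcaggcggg
The E-box began at base 15 after the start in MRTO4, 14 in NOL6, 16 in IMP4 and 4 in GNL2, and 10 bases before the start in UTP20. GNL2 carried the same 6 letters near its start and fell less than the other genes shown. These genes were picked by the size of their falls, and any part of the E-box in the changes was not tested.

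Levels of the members in the control spanned 3.92 FPKM for NOL9 to 886 FPKM for NPM1, with a median of 50 FPKM, and 58 of the 60 were at 10 FPKM or more. FPKM is scaled per transcript length, so levels can be set side by side between genes. The 5 highest were NPM1, NCL (771 FPKM), FBL (399 FPKM), IMP3 (174 FPKM) and NOP56 (144 FPKM). The 2 members under 10 FPKM were NOL9 and UTP15. The signed log2 change was weakly related to the control level across the 60 genes (Pearson r = -0.18 with the log2 level, Spearman rho = -0.26). Every change was negative, so these signs mean that genes at higher levels tended to fall slightly more. The genes share the libraries and are not independent replicates.

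**Figure D3:**
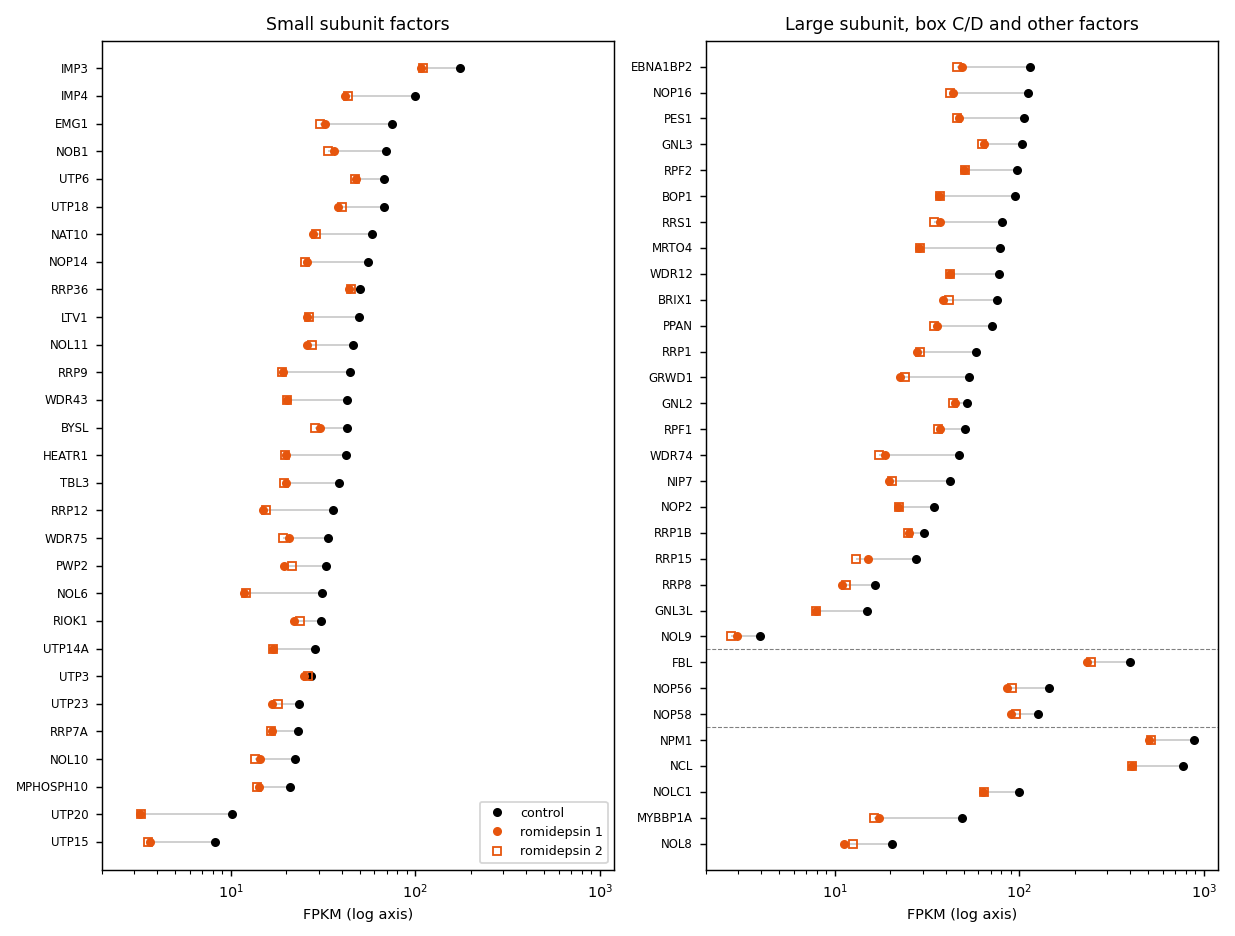
FPKM in each library on a log axis for every member, with the 29 small subunit factors on the left and, on the right from top to bottom, the large subunit, box C/D and other nucleolar factors. Black points are the control, filled orange points romidepsin replicate 1 and open squares romidepsin replicate 2; the control is right of both for all 60 members, with the narrowest gap at UTP3.

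Factors of the small subunit had a median change of -0.77 on the log2(FPKM + 1) scale. Of these 29, 28 were lower and 9 at least 2-fold lower in both libraries (11 on FPKM, with UTP15 and NAT10). Over all genes tested, 41.8% were lower and 3.08% at least 2-fold lower in both libraries (4.91% on FPKM). The largest fall was that of UTP20, a long HEAT-repeat scaffold of the SSU processome, at 10.2 FPKM without romidepsin against 3.23 and 3.27 FPKM with it. The ratio of FPKM was 3.13-fold lower (log2 change -1.40, SE 0.0738, limma adjusted p = 3.03e-06), and 0.786% of all genes tested fell more. NOL6, the partner of RRP7A in the UTP-C complex, was at 31.3 FPKM without romidepsin against 11.8 and 12.2 FPKM with it (2.61-fold lower, log2 change -1.31, SE 0.0511, adjusted p = 8.59e-07). EMG1, the methyltransferase of a hypermodified base of the 18S rRNA, was at 74.8 FPKM and then at 32.3 and 30.4 FPKM (2.39-fold lower, log2 change -1.23, SE 0.0486, adjusted p = 9.12e-07). For these 3 genes the romidepsin libraries lay close together and far under the control.

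At the other end stood a pair of SSU processome factors. UTP3, the human homologue of yeast Sas10, was at 27.4 FPKM without romidepsin against 25.0 and 26.3 FPKM with it, and was the only member that did not pass the test (log2 change -0.09, SE 0.0496, limma adjusted p = 0.128). Its direction depended on the scaling: it was 0.03 higher with quantile normalization (adjusted p = 0.58) and 0.14 higher with equal-sum scaling (adjusted p = 0.0448). RRP36, which acts in early cleavages of the precursor, was at 50.2 FPKM and then at 43.7 and 44.8 FPKM (log2 change -0.18, adjusted p = 0.00514), but at 0.06 above the control with equal-sum scaling (adjusted p = 0.239) and not called with quantile normalization (-0.02, adjusted p = 0.694). Both genes lay inside the range where the scaling of the libraries sets the sign.

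Subunits of the same assembly did not all fall alike. In the UTP-A complex, which binds the precursor first and is tied to its transcription, all 5 members measured here passed as lower. Among all genes tested, 41.8% did, and 3.08% were at least 2-fold lower in both libraries. HEATR1 (42.4 FPKM in the control, then 19.9 and 19.8 FPKM), WDR43 (43.0, then 20.3 and 20.1 FPKM) and UTP15 (8.19, then 3.66 and 3.56 FPKM) had log2 changes of -1.06, -1.06 and -1.0. NOL11 and WDR75 fell by 0.77 and 0.74. In the UTP-B complex, which joins next, TBL3 fell by 0.94, UTP18 by 0.77, PWP2 by 0.66 and UTP6 by 0.50, and none of the 4 reached 2-fold in both libraries.

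The MPP10 complex, which links the U3 snoRNP to the processome, showed a wider split. IMP4 was at 100 FPKM without romidepsin against 41.6 and 43.5 FPKM with it (log2 change -1.22), whereas IMP3 went from 174 to 107 and 111 FPKM (-0.67) and MPHOSPH10 from 20.9 to 14.2 and 13.9 FPKM (-0.54). Against the control, the change of IMP4 was -1.25 and -1.19 in the 2 romidepsin libraries and that of IMP3 -0.70 and -0.64. Both values of a gene share its single control value, so their closeness leaves out any error of the control. For UTP-C, the joint row of RRP7A and its pseudogene RRP7BP was at 23.2 FPKM and then at 16.7 and 16.5 FPKM (-0.46). The fall of its partner NOL6 was much larger. Reads of RRP7A and RRP7BP cannot be told apart in that row. These differences between partners were not tested.

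RRP9, the protein specific to the U3 snoRNP, was at 44.6 FPKM without romidepsin against 19.2 and 19.0 FPKM with it (log2 change -1.18). NOP14, which binds EMG1 in the processome, fell by 1.09, UTP14A, a cofactor of the helicase that takes the U3 RNA off, by 0.72, NOL10 by 0.64 and UTP23, a protein with a PIN domain, by 0.42. NAT10, which acetylates cytidines of the 18S rRNA, went from 58.6 to 28.1 and 29 FPKM (-1.01). EMG1 and NAT10 both fell by more than the median small subunit factor.

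Factors of late 40S maturation were lower in 5 of 5 cases, by varied amounts. Of all genes tested, 41.8% were lower and 3.08% at least 2-fold lower in both libraries. RRP12, a HEAT-repeat protein of pre-40S export, fell by 1.18 and was the only 1 of the 5 at least 2-fold lower in both libraries. NOB1, the endonuclease that trims the end of the 18S rRNA, was at 69.2 FPKM and then at 36.4 and 33.9 FPKM (log2 change -0.96). LTV1, an export and assembly factor, fell by 0.89, BYSL, the homologue of yeast Enp1, by 0.51 and the atypical kinase RIOK1 by 0.42. With no filter on low values the calls of NOB1, BYSL and RIOK1 were lost (limma adjusted p = 0.0593, 0.109 and 0.139), among 21 members in all.

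**Figure D4:**
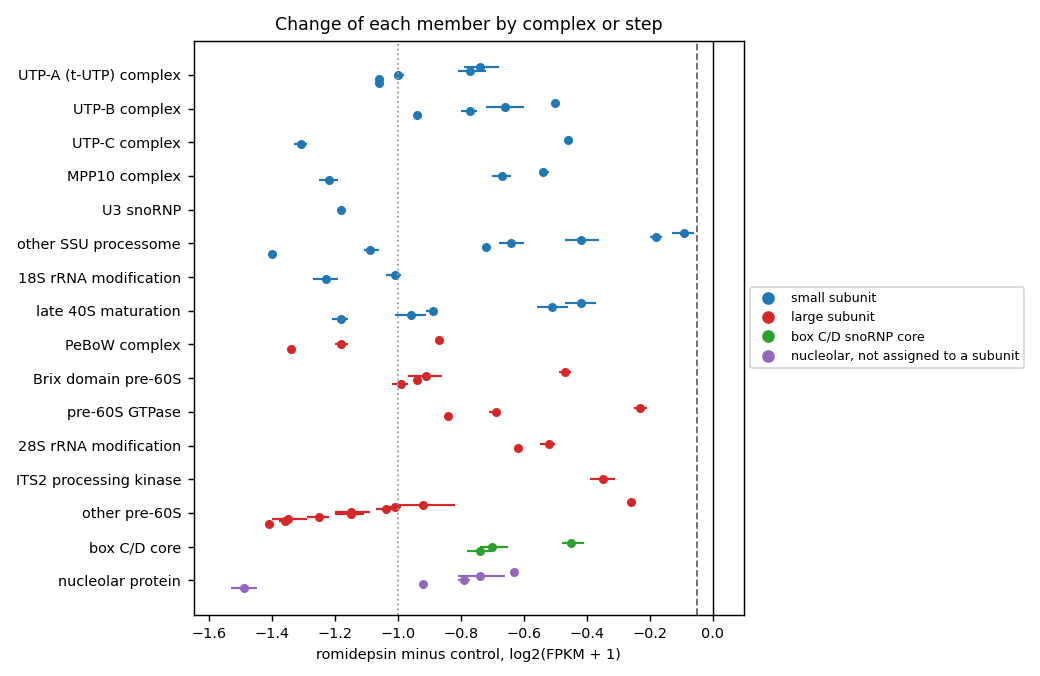
Change of each member after romidepsin on the log2(FPKM + 1) scale (horizontal axis), grouped by complex or step (vertical axis) and coloured by role. Points are the fitted change, bars join the values of the 2 romidepsin libraries against the control, the dashed line marks the median of all genes tested (-0.05) and the dotted line a 2-fold fall; members of 1 complex spread widely, as for IMP4 at -1.22 and MPHOSPH10 at -0.54.

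Factors of the large subunit had a median change of -0.94 on the log2(FPKM + 1) scale. All 23 passed as lower and 9 were at least 2-fold lower in both libraries (10 on FPKM, with RRP1). The shares over all genes tested were 41.8% and 3.08% (4.91% on FPKM). MRTO4, which holds the place of the stalk protein P0 on the pre-60S particle, was at 78.4 FPKM without romidepsin against 28.7 and 29 FPKM with it (2.72-fold lower by FPKM, log2 change -1.41, SE 0.0402, limma adjusted p = 2.84e-07). NOP16, a pre-60S assembly factor, was at 112 FPKM and then at 43.6 and 42.3 FPKM (2.61-fold lower, log2 change -1.36, SE 0.0397, adjusted p = 2.98e-07). WDR74, an early factor that is removed by an ATPase before export, was at 47.4 FPKM and then at 18.8 and 17.3 FPKM (2.63-fold lower, log2 change -1.35, SE 0.0567, adjusted p = 1.14e-06). In each of these genes both treated libraries lay far below the control.

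The smallest falls among large subunit factors were those of GNL2 and RRP1B. GNL2, a GTPase of late nuclear pre-60S steps, was at 52.2 FPKM without romidepsin against 45.1 and 43.9 FPKM with it (log2 change -0.23, SE 0.0406, limma adjusted p = 0.00149). It was 0.01 above the control with equal-sum scaling (adjusted p = 0.843) and not called with quantile normalization (-0.07, adjusted p = 0.178). RRP1B was at 30.3 FPKM and then at 25.4 and 25.0 FPKM (log2 change -0.26, adjusted p = 0.00123), a call that equal-sum scaling ended (-0.02, adjusted p = 0.627). Its paralogue RRP1 went from 58.3 to 28 and 28.8 FPKM (-1.01). The change of RRP1 was -1.03 and -0.99 in the 2 romidepsin libraries and that of RRP1B -0.25 and -0.27. Both values of a gene share its single control value, and the difference between these paralogues was not tested.

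The PeBoW complex is a trio that is needed to process the rRNAs of the large subunit. BOP1 was at 94.6 FPKM without romidepsin against 36.6 and 37.1 FPKM with it (log2 change -1.34), PES1 at 106 and then at 47.2 and 45.9 FPKM (-1.18), and WDR12 at 77.9 and then at 41.9 and 42.2 FPKM (-0.87). All 3 passed as lower (41.8% of all genes tested did). BOP1 and PES1 fell by at least 2-fold in both libraries (3.08% of all genes tested). WDR12 had the lowest level of the trio in the control and the smallest fall.

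Of the Brix domain proteins, a family of rRNA-binding assembly factors, all 4 passed as lower (41.8% of all genes tested did). PPAN, read in a joint row with P2RY11 and their read-through, was at 71.3 FPKM and then at 36.0 and 34.7 FPKM (log2 change -0.99), RPF2 fell by 0.94, BRIX1 by 0.91 and RPF1 by 0.47. RRS1, which with RPF2 brings the 5S particle into the large subunit, was at 80.2 FPKM without romidepsin against 37.0 and 34.4 FPKM with it (-1.15). The GTPases nucleostemin (GNL3) and its relative GNL3L fell by 0.69 and 0.84, the former from 103 FPKM to 64.1 and 63.0 FPKM. GNL2, the other GTPase, changed less than either.

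Among other pre-60S factors, EBNA1BP2, the homologue of yeast Ebp2, fell by 1.25, GRWD1, the chaperone of the ribosomal protein uL3 (RPL3), by 1.15, NIP7 by 1.04 and RRP15 by 0.92. RRP15 had the widest gap between the treated libraries, at 15.1 and 13.0 FPKM against 27.4 FPKM in the control. The methyltransferases of the 28S rRNA changed less: NOP2 fell by 0.62 and RRP8 by 0.52. NOL9, the kinase that acts when the second internal spacer is removed, was the least abundant member, at 3.92 FPKM without romidepsin against 2.96 and 2.75 FPKM with it (log2 change -0.35, limma adjusted p = 0.00882), a call that equal-sum scaling ended (-0.16, adjusted p = 0.136).

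The box C/D snoRNPs guide the methylation of rRNA riboses, and their 3 core proteins among the members all fell by less than 2-fold. FBL, the methyltransferase fibrillarin, was at 399 FPKM without romidepsin against 232 and 245 FPKM with it (log2 change -0.74, limma adjusted p = 3.15e-06). NOP56, in a joint row with MIR1292 and SNORD86, was at 144 FPKM and then at 85.8 and 91.6 FPKM (-0.70), and its paralogue NOP58 at 127 and then at 90.7 and 95.6 FPKM (-0.45). Both romidepsin libraries lay below the control for each of the 3, an ordering seen in 51.4% of all genes tested. With no filter on low values none of the 3 calls held at the same change (limma adjusted p = 0.0593 for FBL, 0.0746 for NOP56 and 0.0938 for NOP58). The change of NOP58 was -0.48 and -0.41 in the 2 romidepsin libraries, smaller than those of NOP56 at -0.74 and -0.65.

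The nucleolar proteins with several functions included the member with the largest fall of all 60 on the log2(FPKM + 1) scale. By the ratio of FPKM, UTP20 fell more (3.13-fold). MYBBP1A, a nucleolar protein that binds MYB and represses rRNA gene transcription, was at 48.8 FPKM without romidepsin against 17.3 and 16.3 FPKM with it (2.91-fold lower, log2 change -1.49, SE 0.0519, limma adjusted p = 5.73e-07). Of all genes tested, 0.564% fell more. NPM1, the nucleolar chaperone that is often mutated in AML, was at 886 FPKM and then at 505 and 520 FPKM (log2 change -0.79). NCL, nucleolin, was at 771 FPKM and then at 406 and 407 FPKM (-0.92). NOLC1, a chaperone of snoRNPs, was at 99.7 FPKM and then at 63.8 and 64.1 FPKM (-0.63), and NOL8 at 20.4 and then at 11.2 and 12.5 FPKM (-0.74). NPM1 has processed pseudogenes elsewhere in the genome, so its value is uncertain where reads were shared among copies.

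Set side by side, the large subunit factors had the lower median, by 0.16 on the log2 scale. This difference was 0.16 and 0.20 in the 2 romidepsin libraries, 0.20 with quantile normalization, 0.16 with equal-sum scaling and 0.10 without joined rows. At least 2-fold falls in both libraries made up 39.1% of the large and 31% of the small subunit factors, or 43.5% and 37.9% on FPKM. The shares over all genes tested were 3.08% and, on FPKM, 4.91%. The ranges, -1.41 to -0.23 and -1.40 to -0.09, overlapped almost wholly. In the lists of further factors described next the order was the other way, with a median of -0.59 for the large and -0.63 for the small subunit, so it depends on which factors are listed. Genes are not replicates and the control is a single library, so this difference has no test and is a description of these libraries.

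Other genes of the pathway, listed by function, were also lower in most cases. Of 32 further small subunit factors, 28 were lower and 2 higher (median -0.63), and of 44 further large subunit factors 40 were lower and 0 higher (median -0.59), against the same background of 41.8% lower. With equal-sum scaling the counts were 25 lower and 2 higher, and 33 lower and 3 higher, where 26.2% of all genes were lower and 48.7% higher. DIMT1, a dimethyltransferase of the 18S rRNA, went from 40.9 to 14.5 and 14.7 FPKM (log2 change -1.42), and TSR1, a late pre-40S factor, fell by 0.96. The kinase gene RIOK3 went the other way, from 17.0 to 27.3 and 27.2 FPKM (0.66). CCDC86 and the helicase gene DDX54 fell by 1.44 and 1.12. At least 2-fold falls in both libraries were met by 1 of the 32 (3.12%) and 2 of the 44 (4.55%), near the 3.08% of all genes tested. On FPKM they were met by 1 (3.12%) and 6 (13.6%), against 4.91% of all genes, so the large subunit list was then above that share.

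Of 14 genes of the H/ACA snoRNPs and of snoRNP assembly, 12 were lower and 1 higher (median -0.66). As deposited, 41.8% of all genes tested were lower and 34.7% higher, the background for the 3 lists of this paragraph. DKC1, the pseudouridine synthase dyskerin, was read with the snoRNAs SNORA36A and SNORA56 and went from 124 to 54.5 and 54.1 FPKM (log2 change -1.18), and its partner GAR1 fell by 1.09. RPAP3, a cochaperone, rose by 0.35. Of 15 genes of the RNA polymerase I machinery, 12 were lower and 1 higher (median -0.56), with POLR1C, a subunit shared with RNA polymerase III, at 63.7 FPKM and then at 24.8 and 24.3 FPKM (-1.34). POLR1A, the largest subunit, read in a joint row with LOC90784, fell by 0.95, and POLR1F (listed as TWISTNB) rose by 0.13. Of 14 genes of the RNA exosome, which trims rRNA ends, its cofactors and the separate exonuclease XRN2, 12 were lower and 0 higher (median -0.54), led by EXOSC5 (-1.23) and EXOSC2 (-0.92). With equal-sum scaling, 10 were lower in each of these 3 lists, and 3, 1 and 2 were higher in turn, against 26.2% and 48.7% of all genes.

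MYC itself was at 362 FPKM without romidepsin against 119 and 116 FPKM with it (log2 change -1.61, SE 0.0351, limma adjusted p = 1.24e-07). Of the 9 genes listed for its network, MYC included, 4 were lower and 3 higher as deposited (background 41.8% and 34.7% of all genes tested). Under equal-sum scaling 2 were lower and 5 higher (26.2% and 48.7% of all genes). These counts were near the shares over all genes. MXD1, which competes with MYC for MAX, rose from 2.45 to 8.85 and 9.21 FPKM (1.54), and MNT, another such competitor, fell by 0.55. MAX went from 56.5 to 68.1 and 66.8 FPKM (0.25, adjusted p = 0.00062). The directions of these 4 genes were the same with quantile normalization and with equal-sum scaling.

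Depth was read from the step between the lowest values, with transcript lengths of another annotation, and so is approximate. It came to 18500000 to 21000000 fragments in the control, 20500000 to 23400000 in romidepsin replicate 1 and 20100000 to 23400000 in replicate 2, depending on the window around that step. The least covered member had about 220 fragments in the control (UTP23) and 140 in each romidepsin library (UTP15). All 6 AML markers examined, were present in every library, with a summed level of 1866 FPKM without romidepsin against 1173 and 1156 FPKM with it. MPO, ELANE, SPI1 and CD33 passed as lower, while CEBPA (223, then 265 and 262 FPKM) and PTPRC (71.3, then 96.7 and 95.9 FPKM) passed as higher. The call of CD33 (log2 change -0.18) was lost with quantile normalization (-0.04, limma adjusted p = 0.424) and with equal-sum scaling (0.05, adjusted p = 0.304). Of 16 markers of lymphoid, erythroid, epithelial and fibroblast cells, 9 were at 0 in all libraries. The lymphoid sum was 1.06 FPKM without romidepsin against 3.07 and 3.03 FPKM with it, with MS4A1 at 0 and CD3E at or near 0. The epithelial and fibroblast sum was 0.0525, 3.79 and 3.79 FPKM, all of it from COL1A1 and DCN, with EPCAM, KRT19, KRT5 and COL1A2 at 0. The erythroid sum was at most 0.0232 FPKM. The part of these differences in the members' changes was not tested.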

How the data were processed

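FPKM values were used as deposited by the authors, in 1 table per library (unit per the file headers). The submitters' processing notes list TopHat, Cufflinks and Cuffdiff with build hg19; no source used here states versions, settings or annotation. Rows with no gene name (1770 rows, 21.1% to 22.3% of the summed FPKM) and 27 rows named by a number were left out, and rows of a symbol were summed. The summed FPKM ran from 657213 to 790922 per library, and no row above 0 was identical in the romidepsin pair. Genes with at least 1 FPKM in 1 library (11708) were fitted with limma 3.58.1 in R 4.3.3 on log2(FPKM + 1), with a mean-variance trend and Benjamini-Hochberg adjustment over all of them (threshold 0.05). All 60 members passed this filter. Only the romidepsin pair gave a residual degree of freedom (1), beside 6.06 prior ones, so the control library was taken to vary as much as that pair. Fold changes of FPKM carry no pseudocount, while log2 changes and the 2-fold rule do and understate the change of low genes.

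The fit was tested on simulated data. Members, roles, lists and motifs were chosen with earlier results of these data known. Values in every library are given for the 3 largest and 2 smallest changes in each subunit class, the box C/D and unassigned members, uncalled members and the 5 highest levels, and others are named within their complex. In other lists the 2 largest falls and the largest rise that passed were named (MAX was added after its value was seen). Alternatives were quantile normalization, equal-sum scaling, a pseudocount of 0.1, no filter, a mean of at least 5 FPKM, only symbols with 1 row naming 1 gene, and leaving out each romidepsin library. A mean of at least 10 FPKM, and the 2-fold rule on FPKM with no pseudocount, were added after seeing the data. Depth was estimated with GENCODE 29 transcript lengths, under several windows that were in part chosen after seeing the data. Python 3.11.15, pandas 2.3.3, numpy 2.4.6 and matplotlib 3.10.9 were used.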

Additional observations from a re-analysis of the deposited data

How the results depend on the processing

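A single control library limits every value here, since leaving out either treated library removes the only residual degree of freedom and leaves values with no test. No paired analysis was possible because there is a single control library. The count of lower members was 59 as deposited and 55 to 59 under the scaling, pseudocount, stricter filter and single-row alternatives, but 38 with no filter, where 21 members lost their call and the fit had 0.588 prior degrees of freedom in place of 6.06. Without the filter 4135 genes passed in all, against 8953. The cause was not tested. In the higher direction, UTP3 passed with equal-sum scaling (1 higher). Members at least 2-fold lower in both libraries numbered 19 as deposited, 10 with quantile normalization and 7 with equal-sum scaling, 21 to 23 when only 1 romidepsin library was used, and 22 on FPKM with no pseudocount (chosen after seeing the data).

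The median of the members was -0.70 with quantile normalization, -0.65 with equal-sum scaling, -0.91 with a pseudocount of 0.1, -0.89 with a mean of at least 5 FPKM, -0.87 with a mean of at least 10 FPKM (chosen after seeing the data), -0.89 with single-name rows alone and -0.86 without either romidepsin replicate. For the small subunit the median was -0.62 with quantile normalization, -0.54 with equal-sum scaling, -0.83 with single-name rows and -0.81 to -0.79 without a romidepsin replicate. For the large subunit it was -0.83, -0.70, -0.96 with a pseudocount of 0.1, -0.96 with a mean of at least 5 FPKM and -0.99 to -0.97 without a replicate. The difference between the subunit medians was 0.20 with quantile normalization, 0.10 with single-name rows and 0.16 to 0.20 without a replicate. Changes of sign were those of UTP3 (0.03 with quantile normalization, 0.14 with equal-sum scaling), RRP36 (0.06) and GNL2 (0.01), both with equal-sum scaling.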

Other observations

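The E-box was also described over all tested genes with a promoter window. The 1092 genes with the motif had a median change of -0.16 on the log2(FPKM + 1) scale and the others -0.04. Of genes with an E-box, 50.2% passed the limma test as lower and 6.87% were at least 2-fold lower in both libraries, against 40.9% and 2.31% of the genes without it. For the ETS family site the at least 2-fold falls came to 2.75% with and 2.95% without the motif, for the NRF1 site to 2.46% and 2.97%, and for the GC box to 2.95% and 2.74%. These shares include the members and describe the windows, with no test.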
